A study of Mus musculus with 4 samples.

Results

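Bidirectional promoters are the stretches of DNA between 2 genes that lie back to back and are read away from each other. Among 21938 protein-coding gene records of the mouse annotation GENCODE vM21 (mm10), 754 pairs lay on opposite strands, pointed away from each other and had their outermost start sites at most 1000 bases apart. These pairs held 1487 genes, or 6.78% of the records, and the start sites of a pair were 129.5 bases apart at the median (quartiles 67 and 240, range 1 to 987 bases). Each promoter was taken as the interval between both start sites with 200 bases added on either side, which gave intervals of 402 to 1388 bases. The 754 intervals merged into 733 that did not overlap, because 42 pairs shared a gene with another pair, and a few pairs stand under duplicate gene records.

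Accessibility was assayed with ATAC-seq, in which a transposase inserts sequencing adapters where DNA is accessible. The starting cells were CD4+ T cells of naive phenotype (CD62L high, CD44 low and CD25-), sorted from spleens of male wild-type C57BL/6 mice aged 7 weeks. All of them were activated with anti-CD3 coated on the plate (5 µg/ml) and anti-CD28 in solution (1 µg/ml) and given human TGF-β1 (5 ng/ml) and mouse IL-2 (10 ng/ml), which drives naive cells toward induced regulatory T cells (iTreg). The iTreg+PBS cells had no IL-4 and the iTreg+IL-4 cells had mouse IL-4 at 15 ng/ml, each for 48 h and each with 2 libraries, which the study describes as independent pooled samples. The cultures may still hold cells that did not become regulatory T cells, and a pool cannot show how mice differ.

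Most bidirectional promoters lie in CpG islands, stretches in which the dinucleotide CG has escaped the loss seen elsewhere in mammalian genomes. They typically lack a TATA box and serve housekeeping genes, among them genes of DNA repair, mitochondria and RNA processing. One nucleosome-free stretch can serve both genes of a pair, since RNA polymerase is loaded in either direction from it. Some pairs instead carry a tissue-restricted gene on one side, or genes that are expressed from only one parental chromosome.

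The spacers of a few pairs show what such promoters are made of, and all of them are free of annotated exons. They are written 5′ to 3′ on the plus strand of mm10, so that the gene on the minus strand, named first, starts just before the first base and the gene on the plus strand just after the last. Capitals mark exact matches, on either strand, to 8 motifs: the ETS motif CCGGAAG, the NRF1 motif GCGCATGCG, the YY1 motif AAGATGGCG, the GC box GGGCGG, the CCAAT box CCAAT, the cyclic AMP response element TGACGTCA, the E-box CACGTG and the TATA box TATAAA. A match describes the letters only, and no binding was measured. The first group holds 2 of the promoters with the strongest peaks in all libraries and the spacers upstream of Brca1 and Trp53, both of them tumor suppressor genes.
Npc2-Isca2 (chr12:84773153-84773250): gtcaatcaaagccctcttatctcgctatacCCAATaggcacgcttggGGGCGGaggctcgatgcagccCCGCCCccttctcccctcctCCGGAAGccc
Pip4p1-Pnp (chr14:50930857-50931081): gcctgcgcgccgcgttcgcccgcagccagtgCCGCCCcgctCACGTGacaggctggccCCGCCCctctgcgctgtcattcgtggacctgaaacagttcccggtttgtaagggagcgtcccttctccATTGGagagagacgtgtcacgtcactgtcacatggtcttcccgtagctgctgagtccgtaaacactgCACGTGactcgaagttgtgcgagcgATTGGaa
Brca1-Nbr1 (chr11:101551956-101552148): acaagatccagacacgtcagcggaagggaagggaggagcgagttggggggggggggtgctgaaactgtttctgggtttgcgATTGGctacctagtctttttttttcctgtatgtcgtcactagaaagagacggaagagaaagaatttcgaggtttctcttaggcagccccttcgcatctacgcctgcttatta
Wrap53-Trp53 (chr11:69580256-69580358): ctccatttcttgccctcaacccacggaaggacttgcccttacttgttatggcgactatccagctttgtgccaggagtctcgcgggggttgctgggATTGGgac

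The second group serves genes of T cell signalling: Cd274 encodes the checkpoint ligand PD-L1, Tnfrsf9 the costimulatory receptor 4-1BB, Socs4 a member of the suppressors of cytokine signalling and Il17rb a receptor chain for IL-25.
Plgrkt-Cd274 (chr19:29367391-29367454): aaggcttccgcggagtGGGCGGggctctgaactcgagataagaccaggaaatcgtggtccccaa
Park7-Tnfrsf9 (chr4:150914438-150914561): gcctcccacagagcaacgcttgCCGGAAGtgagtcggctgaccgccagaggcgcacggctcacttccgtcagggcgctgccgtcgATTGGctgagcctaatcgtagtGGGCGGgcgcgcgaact
Wdhd1-Socs4 (chr14:47276858-47276930): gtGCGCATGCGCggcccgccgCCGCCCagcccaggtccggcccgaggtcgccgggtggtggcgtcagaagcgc
Il17rb-Chdh (chr14:30008897-30009022): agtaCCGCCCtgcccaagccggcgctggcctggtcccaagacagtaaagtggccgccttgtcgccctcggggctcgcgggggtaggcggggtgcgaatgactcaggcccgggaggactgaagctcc

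The third group holds the spacer with the largest loss of rank with IL-4 among promoters whose conditions stood apart in the whole lists, a spacer built of a repeat, and a histone spacer with a TATA box. In the B3galt6-Sdf4 spacer, a run of 16 bases recurs 7 times.
Spata17-Gpatch2 (chr1:187215466-187215507): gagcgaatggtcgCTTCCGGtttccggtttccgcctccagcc
B3galt6-Sdf4 (chr4:155992650-155992871): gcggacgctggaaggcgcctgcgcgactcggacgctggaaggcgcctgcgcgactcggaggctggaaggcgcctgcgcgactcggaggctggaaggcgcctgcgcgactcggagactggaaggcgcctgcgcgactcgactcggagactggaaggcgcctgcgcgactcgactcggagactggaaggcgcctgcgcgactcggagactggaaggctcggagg
Hist2h2ac-Hist2h2be (chr3:96220881-96221118): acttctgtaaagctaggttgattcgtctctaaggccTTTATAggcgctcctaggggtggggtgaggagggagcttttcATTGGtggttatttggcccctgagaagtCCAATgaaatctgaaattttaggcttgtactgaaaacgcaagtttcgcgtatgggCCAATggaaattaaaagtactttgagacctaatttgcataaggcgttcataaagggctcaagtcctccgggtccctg

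The last group had no peak in any library and is shown for contrast. It holds the spacer between a pair of basement membrane collagen genes and the spacer upstream of the cytokine gene Il11.
Col4a4-Col4a3 (chr1:82586850-82586920): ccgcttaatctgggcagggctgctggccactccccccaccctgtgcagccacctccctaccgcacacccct
Il11-Tmem190 (chr7:4782860-4782936): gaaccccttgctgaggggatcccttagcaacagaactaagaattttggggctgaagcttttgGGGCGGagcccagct

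A region was counted as called where a MACS2 peak of a library shared at least 1 base with it. The 4 lists held 77064 and 56645 peaks (iTreg+PBS replicates 1 and 2) and 78670 and 67743 peaks (iTreg+IL-4 replicates 1 and 2), so iTreg+PBS replicate 2 stood lowest. The number of reads is unknown, and a missing peak means only that no enrichment passed the threshold of the caller. The strength of a peak is given as its rank, the percentage of peaks in the same list with a higher −log10 q, so that a low rank is a strong peak. The start sites of 6 of 8 T cell markers and of Cd4 had a peak in all 4 libraries, while Cd3d had one in 3 and Cd28 in none. Of the CD8 chains, Cd8b1 had a peak in all 4 libraries and Cd8a in replicate 1 of each condition, while none of 3 natural killer cell markers had any. Of 4 B cell markers, 3 had no peak and Ms4a1 had one in 3 libraries. Of 4 myeloid markers, Lyz2 and Csf1r had none, Itgam had a peak in 3 libraries and Cebpa in 4. The part of other cells in the results was not tested.

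Nearly all bidirectional promoters were open in every library. Of 754 intervals, 706 (93.6%) had a peak in all 4 libraries, whereas 51.1% of all coding start sites did (window of 200 bases to either side). A peak was present over 94.7% and 93.6% of the intervals in iTreg+PBS replicates 1 and 2 and over 94.3% and 93.9% in iTreg+IL-4 replicates 1 and 2. Hence the share averaged 94.2% ± 0.750 (SD, n = 2) in iTreg+PBS and 94.1% ± 0.281 (SD, n = 2) in iTreg+IL-4. The difference of -0.0663 percentage points was smaller than the replicate SDs (exact permutation test, two-sided, p = 1), and its sign changed under several alternatives. With 2 libraries against 2, no p under 0.33 can occur.

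The remaining 48 intervals divide into 39 without a peak in any library and 9 with a peak in 1 to 3 libraries. No interval had a peak in each iTreg+IL-4 library and neither iTreg+PBS library (all coding start sites: 0.305%), and none the other way round (all coding start sites: 0.114%). Of the 9, 8 had a peak in the first iTreg+PBS library and 0 in the second, while 5 and 2 had one in the iTreg+IL-4 libraries, in replicate order. When the intervals were not extended past the start sites, 2 intervals were called only with IL-4, Sirt1-Dnajc12 and P3h4-Fkbp10. Neither was called only with IL-4 once extended. With the extension Sirt1-Dnajc12 had a peak in all 4 libraries, at ranks of 8.47 and 8.84 in iTreg+PBS and 10.1 and 7.63 in iTreg+IL-4. The share over all coding start sites was not counted without the extension.

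To compare these promoters with single start sites, which have no other coding start within 1000 bases on either strand, each start site was given the same window of 401 bases. The start sites of pairs had a peak in 93.2%, 92.1%, 93.2% and 92.4% of cases (iTreg+PBS replicates 1 and 2, then iTreg+IL-4 replicates 1 and 2). The 19174 single start sites had one in 50.1%, 47.0%, 50.3% and 48.7%. The difference was 43.7 ± 0.966 percentage points (SD over 4 libraries), with the same direction in 4 of 4 libraries (exact permutation within libraries, p = 0.13, the smallest that 4 libraries allow). Peaks at the start sites of pairs were also 124 ± 9.84 bases wider at the median (4 of 4 libraries, exact permutation p = 0.13). The libraries are the replicates here, and the genes of a pair share a peak.

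**Figure D1:**
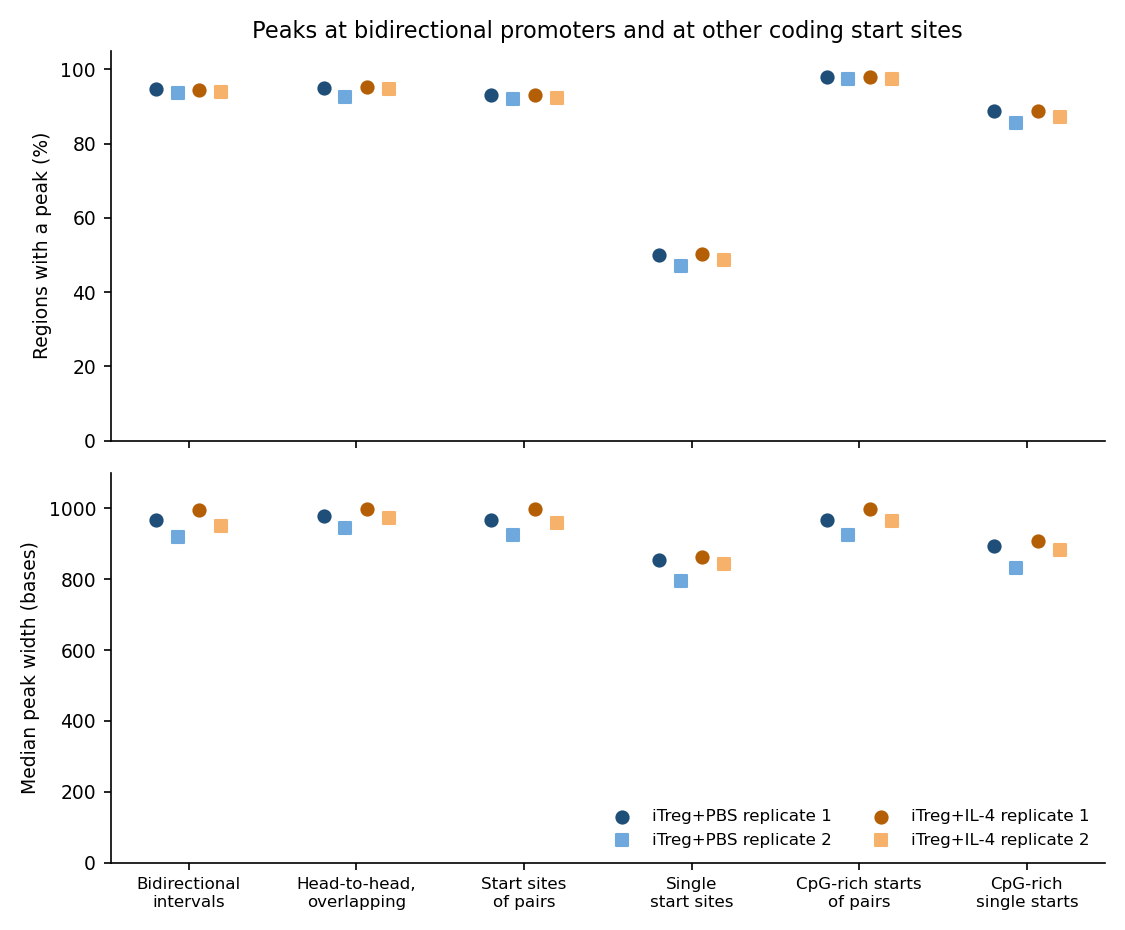
Share of regions with a peak (upper panel, %) and median width of the widest peak (lower panel, bases) in each of the 4 libraries, for bidirectional intervals, head-to-head pairs whose 5′ ends overlap, start sites of pairs and single start sites, with the CpG-rich start sites shown apart. In every library the start sites of pairs lie above single start sites in both panels, and the gap in the upper panel is smaller among CpG-rich start sites, where single ones are called in over 85% of cases.

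The gap was then taken apart by base composition. A start site was called CpG-rich where the 300 bases from 250 before to 50 after it had more than 50% GC and a ratio of observed to expected CG over 0.6. This held for 81.4% of the start sites of pairs and 36.6% of single start sites. Among CpG-rich start sites, those of pairs were called in 98.0%, 97.4%, 97.9% and 97.5% and single ones in 88.8%, 85.6%, 88.7% and 87.2%, in the library order above. There the difference in calls was 10.2 ± 1.24 points and that in median width 84.3 ± 8.47 bases (SD over 4 libraries, each higher in 4 of 4 libraries, exact permutation p = 0.13). The ranks differed likewise: CpG-rich start sites of pairs had median ranks of 4.60, 5.65, 4.86 and 4.72, and CpG-rich single start sites had 8.95, 10.3, 9.0 and 8.99. Among the start sites that were not CpG-rich, a comparison added after the data were seen, the gap in calls was as large as over all start sites. The 276 such start sites of pairs were called in 72.1%, 68.5%, 72.5% and 69.9% and the 12150 single ones in 27.7%, 24.7%, 28.2% and 26.5%, a difference of 44.0 ± 0.457 points (SD over 4 libraries, higher in 4 of 4, exact permutation p = 0.13). Their peaks were 204 ± 17.6 bases wider at the median, and their median ranks were 6.56, 8.36, 6.57 and 7.31 against 18.7, 20.8, 18.5 and 19.0. The smaller gap among CpG-rich start sites thus stood beside single start sites that were themselves called in most cases. Another 446 head-to-head pairs have 5′ ends that overlap, and these were called in 94.8%, 92.6%, 95.3% and 94.6%, close to the intervals studied here.

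In rank, the bidirectional promoters stood among the strong peaks of each list. Their median rank was 4.91 and 5.89 in iTreg+PBS replicates 1 and 2 and 5.00 and 4.89 in iTreg+IL-4 replicates 1 and 2. Peaks in the top 10% of a list covered 71.8%, 66.6%, 71.9% and 72.7% of all 754 intervals in the same order, against 27.3%, 23.4%, 27.3% and 26.6% of all coding start sites. Where a coding start site was called, its median rank was 10.1, 11.5, 10.2 and 10.1. The median width was 966, 919, 995 and 950 bases, so iTreg+PBS replicate 2, the shortest list, had the narrowest peaks and the weakest ranks. Neither measure separated the conditions: with IL-4, the mean over libraries was 30 bases higher in width and -0.458 points different in rank (exact permutation p = 0.667 each).

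A single peak usually covered both start sites. This was so for 94.1% and 93.8% of the called intervals in the iTreg+PBS libraries and for 94.7% and 93.8% in the iTreg+IL-4 libraries, in replicate order. Such a peak ran 398, 372, 408 and 388.5 bases (medians in that order) into the gene on the minus strand and 412.5, 383, 425 and 406.5 bases into the gene on the plus strand. These medians run over many pairs and do not show that a peak was even. Within a promoter, the peak reached 307.5, 285, 320 and 303 bases past the start site on its shorter side and 492, 467, 516 and 484.5 bases on its longer side, and the sides differed by more than 200 bases in 40.5% to 44.4% of cases. Its centre lay within 100 bases of the midpoint between the start sites in 55.6% to 59.5% of cases. At single start sites the peak over the start reached 342, 324, 348 and 338 bases upstream and 471, 441, 477 and 464 bases downstream at the median, so it ran farther into the gene.

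**Figure D2:**
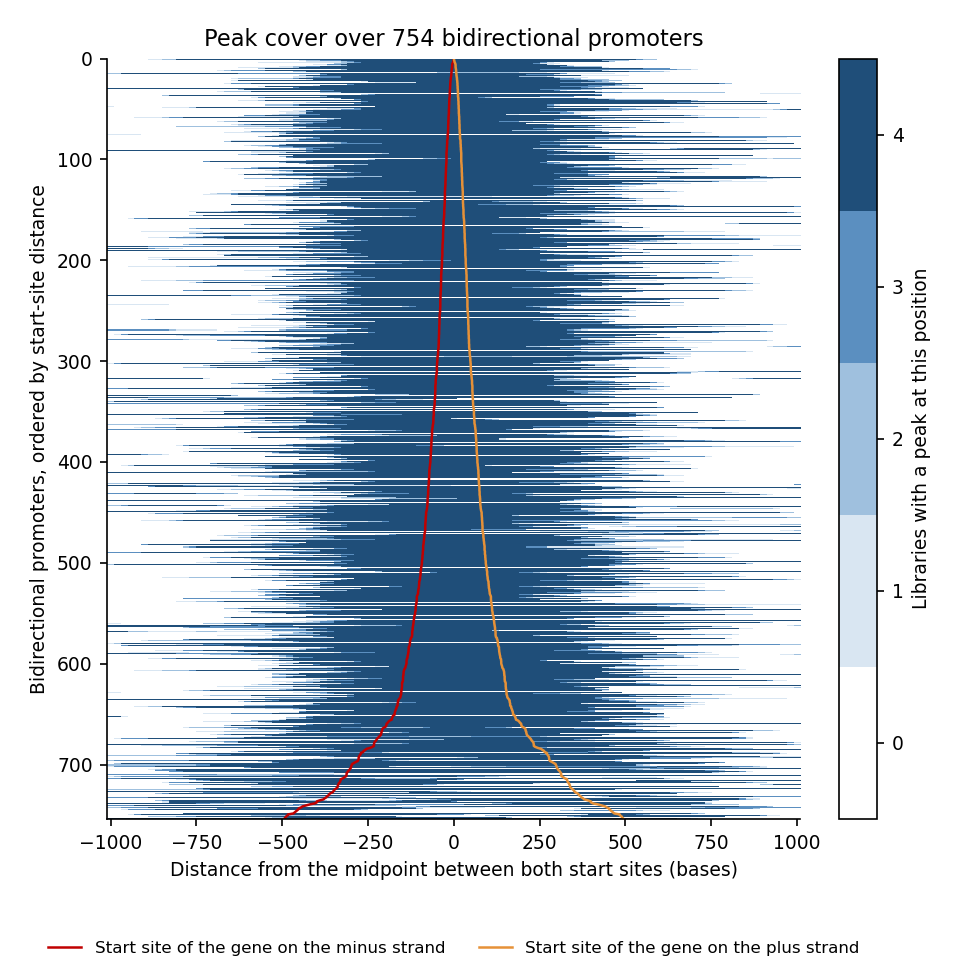
Peaks over the 754 bidirectional promoters, 1 row each, ordered from the closest to the farthest start sites; the x axis is the distance in bases from the midpoint between both start sites, and the shade gives the number of libraries (0 to 4) with a peak there. The red and orange lines are the start sites on the minus and plus strand, and in most rows 1 stretch called in 4 libraries spans both lines, while rows at the bottom more often show a stretch over 1 line.

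The distance between the start sites went along with the form of the peak. The median width grew from 938, 866, 947 and 928 bases for the 128 pairs at 1 to 50 bases to 1055, 961, 1091 and 1013 bases for the 100 pairs at 201 to 300 bases. Ranks were strongest in that same class, at 2.47, 3.01, 2.74 and 3.11, against 7.67, 9.02, 7.71 and 7.09 in the closest pairs. Over the 706 intervals called in every library, Spearman's rho of distance with width was 0.166 to 0.197 across libraries, and with rank it was -0.247 to -0.221. These are weak relations across intervals that share libraries, and they are given as a description.

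Beyond 500 bases a single peak over both start sites was less common than in closer pairs. Of the 70 pairs at 501 to 1000 bases, 59 (84.3%) were called in all 4 libraries. One peak spanned both start sites in 32 of 63, 29 of 59, 34 of 61 and 30 of 61 called pairs (iTreg+PBS replicates 1 and 2, then iTreg+IL-4 replicates 1 and 2). The most frequent other form was a peak over only one start site, in 21, 23, 21 and 22 of these pairs, while each start site had a peak of its own in 4, 5, 5 and 7. The limit of 1000 bases itself marked no visible step: of 11 pairs at 901 to 1000 bases 8 were called in all 4 libraries, and of 12 pairs at 1001 to 1100 bases 9 were.

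**Figure D3:**
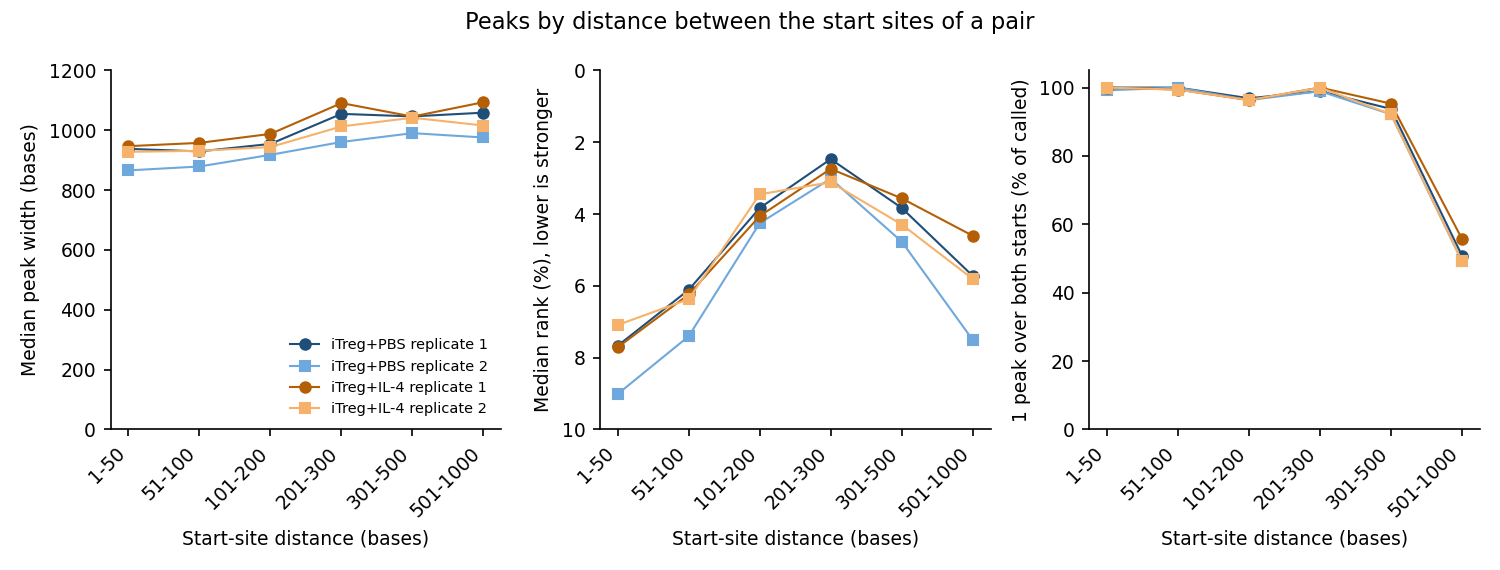
Median peak width (bases), median rank (%, axis inverted so that strong peaks are at the top) and share of called pairs with 1 peak over both start sites (%), by distance between the start sites, with 1 line for each library. Ranks peak at 201 to 300 bases in all 4 libraries, and the share with 1 peak falls below 60% beyond 500 bases.

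Known divergent pairs showed how different the individual promoters were. Of 17 pairs taken from textbook knowledge, 7 met the distance rule, and 6 of these were open in all 4 libraries. Atm-Npat, which joins the kinase of the DNA damage response to a regulator of histone genes, had ranks of 0.847 and 0.658 in iTreg+PBS and of 0.844 and 1.07 in iTreg+IL-4. Mcm4-Prkdc, a subunit of the replicative helicase beside the catalytic subunit of DNA-dependent protein kinase, had 1.88 and 2.27 against 2.72 and 1.34. In Gart-Son, a purine synthesis enzyme beside a splicing cofactor, the ranks were 1.47 and 1.49 against 2.29 and 1.62. All of these stood in the top 3% of every list, and the ranks of the conditions overlapped except at Gart-Son, where both were higher with IL-4.

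The Brca1-Nbr1 spacer, printed above, had ranks of 3.0 and 4.11 in iTreg+PBS and 2.70 and 2.67 in iTreg+IL-4, with a peak 1268 to 1301 bases wide. Wrap53-Trp53 was weaker and narrower, with ranks of 18.5 and 19.2 against 16.8 and 16.9 and widths of 566, 599, 628 and 559 bases. Its interval was not CpG-rich, with a CG ratio of 0.518, whereas the ratio of the Brca1-Nbr1 interval was 0.843. Psmb1-Tbp, a proteasome subunit beside the TATA-binding protein, ranked 7.75 and 11.5 in iTreg+PBS and 29.8 and 9.80 in iTreg+IL-4. The value of iTreg+IL-4 replicate 1 stood apart there: the difference between conditions was 10.2 points, but 0.176 without that library and 20.2 without iTreg+IL-4 replicate 2. By height the same peak ranked 7.55, 10.05, 7.66 and 8.74, with no library apart, whereas with lists of equal length it ranked 10.5 and 11.5 in iTreg+PBS and 41.4 and 11.7 in iTreg+IL-4. The ranks with IL-4 were then the weaker ones, as they were among coding start sites (44.2 and 50.9 against 86.2 and 51.1), but only iTreg+IL-4 replicate 1 stood clear of the others, and it carried the mean differences of 15.5 and 21.1 points.

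The strongest promoters served genes of different functions. Npc2-Isca2, a cholesterol carrier of lysosomes beside an iron-sulfur cluster protein, ranked 0.0649 and 0.115 in iTreg+PBS and 0.0597 and 0.0664 in iTreg+IL-4. Zfp654-Cggbp1, Hjurp-Trpm8 and Pip4p1-Pnp followed, each with a rank of at most 0.138 in its weakest library. Hjurp loads the centromeric histone, and Pnp is a purine enzyme needed by T cells. Trpm8 in turn is the cold sensor of sensory neurons, whose start site shares the open stretch of Hjurp, 28 bases away. The opening of a shared promoter does not say which of its genes is transcribed, and RNA was not measured in these libraries.

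Among genes of cytokine and T cell signalling, 10 pairs met the rule and 9 were called in all 4 libraries, near the 93.6% of all pairs. By comparison, 54.3% of the single start sites on the same list were. Plgrkt-Cd274 had ranks of 11.6 and 12.02 without IL-4 and then 11.2 and 12.2 with it, so the conditions overlapped at the promoter of PD-L1. Park7-Tnfrsf9 was much the same, at 10.3 and 9.25 against 10.9 and 9.78. At Wdhd1-Socs4, ranks of 3.05 and 3.11 stood against 3.49 and 4.86, weaker in both iTreg+IL-4 libraries.

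Other promoters of that list held strong and weaker peaks. Ikzf5-Acadsb, which serves a factor of the Ikaros family, ranked 1.17, 2.06, 1.21 and 1.17. Smyd1-Cd8b1, which holds the start of the CD8 beta chain, was called in all 4 libraries of these CD4+ cells, but with ranks of 38.8 and 31.5 in iTreg+PBS and 37.7 and 35.2 in iTreg+IL-4. A CG ratio of 0.207 placed it among the CpG-poor promoters. Tnfaip1-Ift20 (0.484, 1.11, 0.539 and 0.534) and Tgfbrap1-AI597479 (6.25, 8.91, 5.84 and 6.75) were also open in all. Cd3eap-Ppp1r13l came onto the list by its symbol only, since Cd3eap encodes a subunit of RNA polymerase I. Il11-Tmem190 had no peak in any library.

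The genes of deacetylases gave 3 pairs, and all were called in all 4 libraries (all pairs: 93.6%, single start sites of the list: 76.9%). Sirt6-Ankrd24 ranked 6.0 and 8.52 in iTreg+PBS and 6.75 and 7.95 in iTreg+IL-4. Sirt1-Dnajc12 ranked 8.47 and 8.84 against 10.1 and 7.63, and Hdac3-Rell2 ranked 11.9 and 8.00 against 11.4 and 9.09. At none of the 3 did the ranks of the conditions separate. Hdac3 encodes a class I histone deacetylase that works within corepressor complexes.

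The 7 lists of housekeeping functions held 155 of the 754 pairs (20.6%), and 152 of these (98.1%) were called in all 4 libraries, against 93.6% of all pairs and 92.5% of the 599 pairs on none of these lists. That difference was not tested, and the counts of single lists are to be read beside the share over all pairs. All 18 pairs with a mitochondrial ribosomal protein gene were called in all 4 libraries (single start sites of the list: 95.5%), among them Mrps18b-Ppp1r10 and Mrpl41-Pnpla7 with ranks of at most 1.93 and 2.14. All 28 pairs for respiration and mitochondrial import were called as well (single: 84.7%), led by Tepsin-Ndufaf8 at 0.662 or better. So were 40 of 40 pairs for RNA polymerases, splicing and RNA decay (single: 91.3%), such as Dhx38-Txnl4b at 0.881 or better, and 12 of 12 for translation factors and tRNA synthetases (single: 92.6%), such as S100pbp-Yars at 1.91 or better. On the list of other chromatin regulators, drawn up by gene symbol, 4 of 4 pairs were called (single: 80.7%). Its best-ranked pair was Setd3-Ccnk, at 0.308 or better, and a symbol alone does not establish such a role. The lists are small and overlap in a few pairs.

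In DNA replication and repair, 37 of 38 pairs were called in all 4 libraries (single: 86.7%). Xrcc3-Zfyve21 stood at a rank of 0.518 or better and Rpa1-Smyd4, a subunit of the single-strand binding protein RPA, at 1.11 or better. The exception was Pinlyp-Xrcc1, which had no peak. Proteasome and ubiquitin genes gave 15 of 16 pairs (single: 74.2%), with BC005624-Usp20 at 0.198 or better and the imprinted Peg3-Usp29 as the exception. Among ribosomal proteins 9 of 10 pairs were called (single: 88%), one of which, Rps6kb1-Tubd1, carries a kinase gene with a similar symbol, and Rnf151-Rps2 was without a peak.

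Replication-dependent histone genes often lie in back-to-back pairs of H2A and H2B, and 13 of 14 pairs with a histone gene were called in all 4 libraries (single: 94.9%). The strongest was Hist1h2ac-Hist1h2bc, with ranks of at most 3.05. Only the testis-specific pair Hist1h2ba-Hist1h2aa lacked a peak in every library. Hist2h2ac-Hist2h2be and Bola1-Hist2h2ab lay under the same peak in 3 libraries, with widths of 2545 bases in iTreg+PBS replicate 1 and 2606 and 2421 bases in the iTreg+IL-4 libraries. In iTreg+PBS replicate 2 the stretch was divided, with 1297 bases over Hist2h2ac-Hist2h2be and 1012 bases over Bola1-Hist2h2ab. Together with Nek8-Tlcd1, at 2799, 1330, 2731 and 2686 bases, these were the widest promoters of the set, and at each of them iTreg+PBS replicate 2 was the narrow library.

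Promoters without a peak differed in composition from those called in every library. The 39 intervals called in no library had a median CG ratio of 0.332 and a median GC content of 55.9%, and 25.6% of them were CpG-rich. In the 706 called in all libraries, the median CG ratio was 0.843, the GC content 62.9%, and 90.5% were CpG-rich. The median distance between start sites was similar, at 135 and 128 bases, but the farthest pairs were called less often. Of the 70 pairs at 501 to 1000 bases, 7 had no peak and 84.3% were called in all libraries. Of the 128 pairs at 1 to 50 bases, 2 had no peak and 97.7% were called in all. Some closed pairs carry genes known from other tissues, and 5 of the 39 were picked out here after their values were seen. Col4a4-Col4a3 encodes chains of the kidney basement membrane, Kirrel2-Nphs1 serves the slit diaphragm of podocytes, Nr2e1-Ostm1 holds a nuclear receptor of neural stem cells (though another start of Ostm1 had a peak in all 4 libraries), and Smc1b-Ribc2 and Patl2-Terb2 hold genes of meiosis.

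A pair of imprinted promoters, chosen after their values were seen, lacked a peak in most or all libraries. Sgce-Peg10 had no peak in any library, and Peg3-Usp29 had one in iTreg+IL-4 replicate 1 alone, at a rank of 98.5 and a width of 394 bases. Both pairs are expressed from the paternal chromosome in mouse tissues. Among the other 8 intervals with 1 to 3 calls, Nudt22-Trpt1 (ranks 53.0 and 34.7) and Obsl1-Inha (37.0 and 43.5) were called in replicate 1 of each condition. Sox6-1110004F10Rik was called in iTreg+PBS replicate 1 and in the second iTreg+IL-4 library, at 28.4 and 28.2. Of the 9, 2 were CpG-rich.

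A closed interval did not always mean a closed gene. In 15 of the 39 pairs, another annotated start of at least one gene had a peak in all 4 libraries. Rnf151-Rps2 was one of these, since the ribosomal protein gene Rps2 has 7 further start sites and a peak over at least one of them. The same held for Xrcc1, which joins DNA single-strand break repair, Trim28, a corepressor, and Ccnt1, a subunit of the elongation factor P-TEFb. For the other 24 pairs, no other annotated start of either gene had a peak in every library, and 8 of these were CpG-rich. The rule takes the outermost start site of each gene, which need not be the one in use.

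Several motifs were present at different shares of the start sites of pairs and of single genes, and no test was run. In the 300 bases around the start, the ETS motif was present at 27.3% of the start sites of pairs, against 9.0% of single and 10.8% of all coding start sites. The YY1 motif was at 5.58% against 1.31% (all: 1.70%), the NRF1 motif at 4.77% against 2.28% (all: 2.48%) and the cyclic AMP response element at 4.51% against 2.25% (all: 2.43%). For the GC box the shares were 68.9% and 40.4% (all: 43.0%), for the CCAAT box 44.0% and 38.9% (all: 39.0%) and for the E-box 11.4% and 7.43% (all: 7.75%). The TATA box went the other way, with 4.10% against 13.6% (all: 12.6%). Windows of close pairs overlap, so that one match can count for both genes, and the shares are given as a description.

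Part of these differences was shared by all CpG-rich start sites. Among CpG-rich ones only, the GC box stood at 75.1% for pairs and 77.0% for single start sites, and the E-box at 12.4% and 12.1%. The CCAAT box stood at 42.9% and 37.0%, the NRF1 motif at 5.62% and 4.31% and the cyclic AMP response element at 4.95% and 4.03%. The ETS motif kept 31.0% against 17.2%, the YY1 motif 6.28% against 2.78% and the TATA box 2.23% against 5.21%. In the spacers printed above, the ETS motif stands in Npc2-Isca2, Park7-Tnfrsf9 and Spata17-Gpatch2, the palindromic NRF1 motif in Wdhd1-Socs4, E-boxes in Pip4p1-Pnp and a TATA box with several CCAAT boxes in Hist2h2ac-Hist2h2be. The spacers of Col4a4-Col4a3 and B3galt6-Sdf4 hold no exact match to any of the 8.

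**Figure D4:**
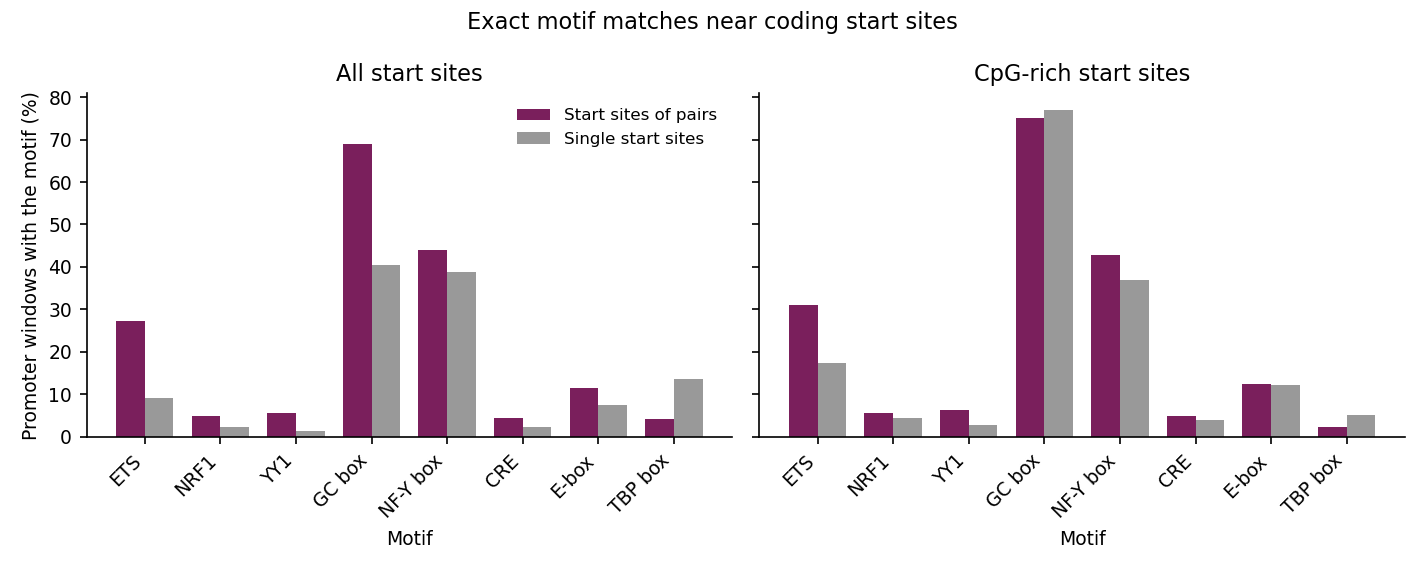
Share of promoter windows (250 bases before to 50 after the start site, %) with an exact match to each motif on either strand, for start sites of pairs and single start sites, over all start sites (left) and CpG-rich ones (right). NF-Y box stands for the CCAAT box and TBP box for the TATA box. ETS and YY1 bars are higher for pairs in both panels, while the GC box bars are nearly level among CpG-rich start sites.

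Between the conditions, most bidirectional promoters had ranks that overlapped. Of the 706 called in all 4 libraries, 155 (22.0%) had a stronger rank in both iTreg+IL-4 libraries than in either iTreg+PBS library, against 20.4% of all coding start sites, which include those of the pairs. A weaker rank in both iTreg+IL-4 libraries was seen in 41 (5.81%, against 5.81% of all coding start sites). Both shares lay near those over all coding start sites, and the difference between the sets was not tested. The median difference (iTreg+IL-4 less iTreg+PBS, by means of replicates) was -0.341 points, against -0.635 over all coding start sites, and 16 promoters differed by more than 5 points, 13 toward a stronger rank with IL-4. Taken library against library, the median absolute gap was 0.969 points between the iTreg+PBS replicates and 0.766 between the iTreg+IL-4 replicates. Across conditions it was 0.529 and 0.593 between iTreg+PBS replicate 1 and the iTreg+IL-4 libraries and 1.23 and 0.943 between iTreg+PBS replicate 2 and the same libraries, so the gaps within a condition lay inside the range of those across conditions.

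The excess of stronger over weaker ranks depended on the ranking. Ranked by height, 154 (21.8%) were stronger and 33 (4.67%) weaker, against 21.6% and 4.76% of all coding start sites, so that 82.4% of the promoters apart were stronger with IL-4, compared with 79.1% by −log10 q. With lists cut to the length of the shortest, the counts were 109 (15.5%) and 73 (10.4%), against 12.6% and 12.6% of all coding start sites. With ranks taken only among coding start sites called in all 4 libraries they were 111 (15.7%) and 86 (12.2%), against 14.9% and 13.5%. Without iTreg+PBS replicate 2, the library with the fewest peaks, they turned to 187 stronger (26.4%) and 216 weaker (30.6%), against 2803 and 3791 of 11213 coding start sites, and the median difference was 0.0280 points. With all 4 libraries kept and lists of equal length, the median difference was 0.0150 points. The direction over the whole set thus depended on that library and on the length of the lists. Under a replicate block the counts were 289 (40.9%, all coding start sites: 42.1%) and 86 (12.2%, all coding start sites: 11.9%).

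**Figure D5:**
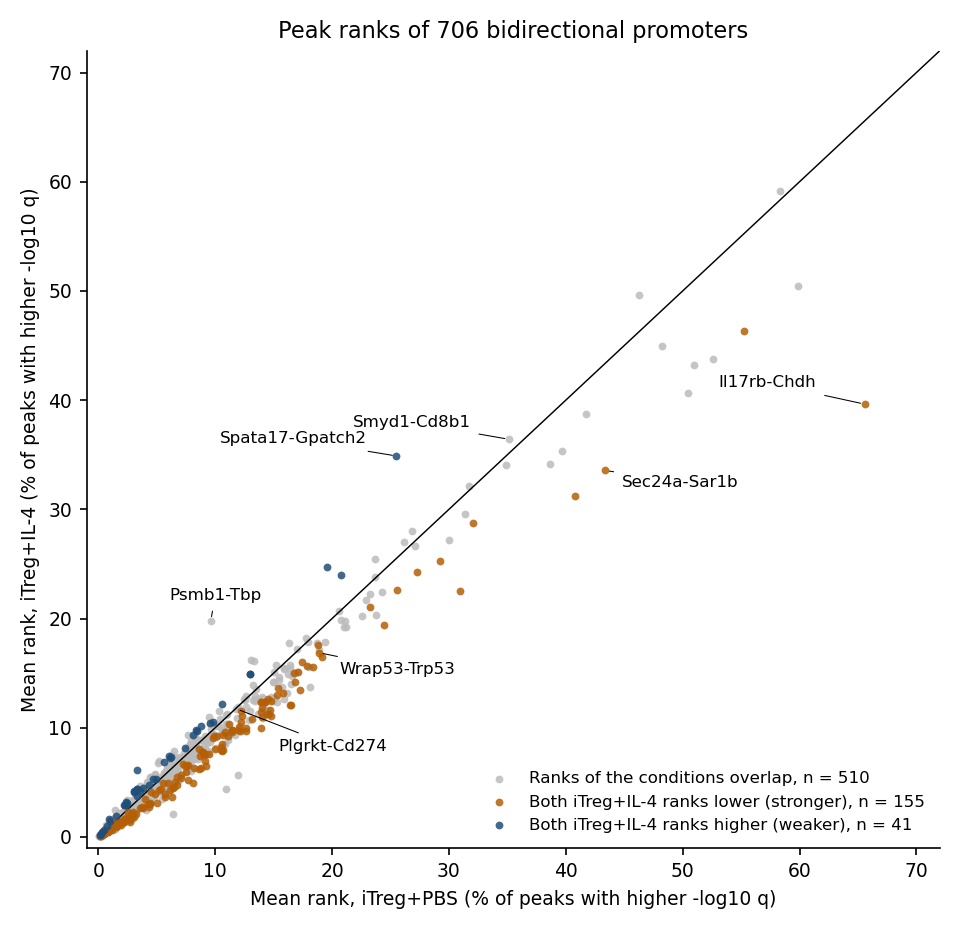
Mean rank without IL-4 (x axis) against mean rank with IL-4 (y axis) of the 706 bidirectional promoters called in all 4 libraries, in percent of peaks with a higher −log10 q; each point is 1 promoter, the line marks equal ranks, and colours mark the 155 and 41 promoters whose ranks did not overlap between conditions. Most points crowd below a rank of 20 along the line, and Il17rb-Chdh lies farthest below it.

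As ranked in the whole lists, the largest difference was at Il17rb-Chdh, whose second gene encodes choline dehydrogenase. Its ranks were 47.7 and 83.4 in iTreg+PBS and 36.5 and 42.8 in iTreg+IL-4, and its widths were 683 and 601 against 810 and 740 bases. The difference was -25.9 points, but -8.11 without iTreg+PBS replicate 2, where the peak was weakest, and -43.8 without iTreg+PBS replicate 1. With lists of equal length it was -23.3 and by height -23.1, but among coding start sites called in all 4 libraries only -5.61, where it ranked 93.6 and 98.0 in iTreg+PBS and 90.0 and 90.5 in iTreg+IL-4. The conditions stayed apart under each of these rankings, but the place as the largest difference did not: among coding start sites Psmb1-Tbp (21.1), B3galt6-Sdf4 (16.4), Chtf8-Utp4 (8.18), Dclre1a-Nhlrc2 (7.81) and Spata17-Gpatch2 (7.57) differed more. Without iTreg+PBS replicate 2 the same was true of Psmb1-Tbp (12.05), Sec24a-Sar1b (-12.0), Gm49661-Prdx2 (-8.80) and Spata17-Gpatch2 (8.76). Only these named pairs were set beside it.

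The other 4 promoters with the largest move toward a stronger rank also began as weak peaks. Sec24a-Sar1b, a pair of COPII vesicle genes, ranked 45.6 and 41.2 in iTreg+PBS and 35.6 and 31.5 in iTreg+IL-4. Zcchc3-6820408C15Rik ranked 34.3 and 47.4 against 30.2 and 32.3, a difference of -9.60 that became -3.05 without iTreg+PBS replicate 2 and -16.1 without iTreg+PBS replicate 1. Likewise Zfyve28-Cfap99, at 24.98 and 37.0 against 21.9 and 23.1, went from -8.46 to -2.48 and -14.4 without these libraries in turn. Gm49661-Prdx2, which serves a peroxiredoxin, ranked 55.2 and 55.4 against 40.4 and 52.3, so most of its difference of -8.91 came from iTreg+IL-4 replicate 1, without which it was -2.95 (-14.9 without iTreg+IL-4 replicate 2). With lists of equal length, and with ranks taken among coding start sites, the conditions overlapped at Sec24a-Sar1b and Gm49661-Prdx2. Among coding start sites the differences of these 4 lay between -4.99 and -1.38.

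Toward a weaker rank with IL-4, the 5 leading pairs differed in how far the value rested on one library. Spata17-Gpatch2 ranked 26.1 and 24.9 in iTreg+PBS and 36.0 and 33.8 in iTreg+IL-4, a difference of 9.38 that stayed between 8.26 and 10.5 with each library left out and was 15.0 with lists of equal length. Dclre1a-Nhlrc2, whose first gene encodes a nuclease for DNA crosslinks, ranked 18.8 and 20.3 against 22.1 and 27.4; its difference of 5.20 was 2.56 without iTreg+IL-4 replicate 2 and 7.85 without iTreg+IL-4 replicate 1, and it was 8.80 with lists of equal length. Emc3-Fancd2, with a core gene of the Fanconi anemia pathway, ranked 21.1 and 20.5 against 25.5 and 22.5, a difference of 3.17 that was 1.67 without iTreg+IL-4 replicate 1, and its conditions overlapped with lists of equal length (6.53). In the whole list of DNA replication and repair 6 of 37 called pairs were stronger (16.2%, all coding start sites: 20.4%) and 5 weaker (13.5%, all: 5.81%) with IL-4, with a median difference of -0.119 points. Without iTreg+PBS replicate 2 these were 9 (24.3%, all: 25%) and 19 (51.4%, all: 33.8%), and without iTreg+PBS replicate 1 they were 22 (59.5%, all: 68.2%) and 8 (21.6%, all: 10.9%). They were 9 (24.3%, all: 34.2%) and 9 (24.3%, all: 15.7%) without iTreg+IL-4 replicate 1 and 12 (32.4%, all: 47.2%) and 8 (21.6%, all: 17.3%) without iTreg+IL-4 replicate 2.

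B3galt6-Sdf4, the pair with the repeated spacer, ranked 3.62 and 3.01 in iTreg+PBS and 5.81 and 6.45 in iTreg+IL-4, with a peak of 1330 to 1405 bases. Its difference of 2.81 points stayed between 2.49 and 3.13 with each library left out, and the conditions were apart under each ranking tried, with a difference of 16.4 among coding start sites. Chtf8-Utp4 ranked 12.02 and 13.9 against 15.6 and 14.1; its difference of 1.91 was 0.948 without iTreg+PBS replicate 1, 1.16 without iTreg+IL-4 replicate 1 and 2.87 without iTreg+PBS replicate 2, it was 4.17 with lists of equal length and 8.18 among coding start sites, and by height its conditions overlapped.

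By gene group, the counts are read beside the 20.4% stronger and 5.81% weaker of all coding start sites, and no list was tested. In the respiration and import list 12 of 28 pairs (42.9%) were stronger and 0 weaker with IL-4, with a median difference of -0.879 points (all coding start sites: -0.635). The largest moves of the list toward a stronger rank were Fam126b-Ndufb3 at -4.41 and Uqcr10-Zmat5 at -3.10 points. These pairs were picked outside the naming rule, after their values were seen. Rps28-Ndufa7 (1.37), Sdha-Ccdc127 (0.568) and Esf1-Ndufaf5 (0.168) moved the other way, with conditions that overlapped. Without iTreg+PBS replicate 2, 13 were stronger and 3 weaker (all coding start sites: 25% and 33.8%), and the median difference was -0.306. In the mitochondrial ribosome list 5 of 18 (27.8%) were stronger and 1 weaker, with a median of -0.659, and without that library 6 and 4, with a median of 0.102. The stronger pairs without iTreg+PBS replicate 1 were 22 of 28 and 13 of 18 on these lists (all coding start sites: 68.2%). They were 16 and 9 without iTreg+IL-4 replicate 1 (all: 34.2%) and 20 and 8 without iTreg+IL-4 replicate 2 (all: 47.2%). The weaker pairs without iTreg+PBS replicate 1 were 1 (3.57%) and 3 (16.7%) on these lists (all: 10.9%). They were 1 (3.57%) and 1 (5.56%) without iTreg+IL-4 replicate 1 (all: 15.7%). Without iTreg+IL-4 replicate 2 they were 4 (14.3%) and 4 (22.2%, all: 17.3%).

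The RNA polymerase and splicing list, with 8 of 40 stronger (20%) and 1 weaker, lay at the share over all coding start sites, and without iTreg+PBS replicate 2 it had 10 stronger (25%, all: 25%) and 12 weaker (30%, all: 33.8%). It had 25 stronger (62.5%, all: 68.2%) and 5 weaker (12.5%, all: 10.9%) without iTreg+PBS replicate 1. These were 16 (40%, all: 34.2%) and 5 (12.5%, all: 15.7%) without iTreg+IL-4 replicate 1 and 16 (40%, all: 47.2%) and 9 (22.5%, all: 17.3%) without iTreg+IL-4 replicate 2. Of the 13 called histone pairs, 1 was stronger and 0 weaker, with a median of 0.0805. Without iTreg+PBS replicate 2, 1 was stronger and 6 (46.2%) were weaker (all coding start sites: 33.8% weaker), and without iTreg+IL-4 replicate 1 there were 1 and 5 (38.5%, all: 15.7%). Stronger pairs numbered 8 (61.5%, all: 68.2%) without iTreg+PBS replicate 1 and 7 (53.8%, all: 47.2%) without iTreg+IL-4 replicate 2. No difference from these shares was tested.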

How the data were processed

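ATAC-seq peak lists of 2 iTreg+PBS and 2 iTreg+IL-4 libraries were analysed, with conditions and replicates as the labels give them. Libraries were sequenced on the BGISEQ-500 platform. Per the submitters' processing notes, Bowtie2 2.2.5, MACS2 2.1.2 and bedtools 2.16.2 were used with mm10. The authors called peaks in each library separately. Adjustment of insertion positions and removal of duplicate or mitochondrial reads are not given in the sources used here, and their effect on peak edges and q-values was not tested. Each deposited peak carries a value read as its −log10 q-value and a height, read as the pileup signal. The lists have no column names, so this reading was inferred from the values. Neither was scaled between libraries by the authors, so peaks were ranked only within their own list. The number of reads, and so the depth, is unknown. No interval was therefore given for a peak call.

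Gene pairs and start sites came from GENCODE vM21 (protein-coding records), and sequence was read from GRCm38. An interval took the rank of its strongest peak and the width of its widest. The analysis used Python 3.11.15, numpy 2.4.6, pandas 2.3.3, scipy 1.17.1, pysam 0.24.0, samtools 1.23.1 and matplotlib 3.10.9. Call shares, widths and ranks were compared by exact permutation of libraries or within libraries, two-sided. The counting was checked on simulated lists of 714 intervals, in which it recovered 250 of 250 planted calls, missing calls or rank changes. The planted values had no noise and were the same in both replicates, so the check covers the counting only. Rank changes were counted there with an added margin that the results did not use.

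Members, gene lists and motifs were chosen with earlier results of these data known. Named pairs are textbook divergent pairs, up to 10 cytokine or T cell pairs, the deacetylase pairs, the 5 with the best rank in the weakest library, the 5 that differed most in each direction among promoters whose ranks did not overlap between conditions, the 3 with the widest peaks and the best-ranked examples of each list. Spacers of these of at most 300 bases and without an annotated exon could be printed. One pair that met the naming rule is not reported here. Alternatives kept the upper 50% of each list, cut the lists to 56645 peaks, required 50% overlap, dropped the extension, lowered the distance to 500 bases, added overlapping head-to-head pairs, ranked by height or among coding start sites, restricted start sites to CpG-rich ones, compared whole intervals with single windows, left out each library or blocked on the replicate number. Counting 1 pair per overlapping group, and comparing start sites that are not CpG-rich, were added after the data were seen. Across the 706 promoters, deviations of same-numbered libraries correlated with r = 0.357, which 2 numbers cannot establish as pairing.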

Additional observations from a re-analysis of the deposited data

How the results depend on the processing

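Of 108 alternative values, 81 kept their direction or stayed within 1.5 times, 19 moved and 8 reversed. Peak calls limit these results to what passed the threshold at an unknown depth, and p-values could not pass 0.05 in this design. Start sites of pairs stayed above single start sites in calls and width under every alternative run.

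The difference in the share of called intervals (main -0.0663 points) was 0.398 with the upper 50% of each list, 0.0663 with lists of equal length, 0.332 without the extension and 0.417 with overlapping head-to-head pairs, and -0.597 to 0.464 with each library left out. The median rank difference (main -0.341) was 0.0150 with lists of equal length and -0.787 to 0.0280 with each library left out. With head-to-head pairs added, 1119 intervals were called in all 4 libraries and 1 only with IL-4. Of the 1119, 247 were stronger and 67 weaker (all coding start sites: 20.4% and 5.81%). These counts come from a larger set. Intervals called only with IL-4 numbered 2 without the extension and 0 to 1 with a library left out; those only without IL-4 numbered 0 to 3. Weaker ranks with IL-4 numbered 73 with lists of equal length (10.4%, all coding start sites: 12.6%) and 86 among coding start sites (12.2%, all: 13.5%). With a library left out, fewer libraries have to agree, and stronger ranks numbered 187 to 462 (26.4% to 65.4%, all: 25% to 68.2%). Weaker ones then numbered 90 to 216 (12.7% to 30.6%, all: 10.9% to 33.8%). They outnumbered the stronger ones only without iTreg+PBS replicate 2. With the replicate block the counts were 289 stronger and 86 weaker, and the median difference is the same by construction.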
